A study of Sus scrofa with 6 samples.

Results

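Pig cells reprogrammed to piPSCs (induced pluripotent stem cells) and grown to passage 10, labelled Rex1-, were compared with their progenitor fibroblasts across all genes of a deposited expression table. Genes were taken where FPKM (fragments mapped to a gene, divided by its length and the library size) reached at least 1 in either group, which held for 13507 of 25322 gene IDs, or 53.3%. RNA sequencing had been done on cells of the Small Xiang Pig strain of Sus scrofa. The groups used were piPSCs P10 (Rex1-), 2 libraries at passage 10, called P10 here, and PEF, 2 libraries of fibroblasts at passage 5. The table gave 1 column per group, so each value is the authors' value for a group, without SD or n, and no difference has a replicate check. The other group, piPSCs P5 (Rex1+) at passage 5, is not part of the comparison. The sources used here do not give the reprogramming factors, whether the line was 1 clone, or whether introduced gene copies add to the values. Passage number and cell state differ together between P10 and PEF and cannot be told apart.

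Reprogramming returns a differentiated cell to a state like that of the early embryo, in which it divides fast, keeps epithelial contacts and can enter any lineage. Fibroblasts are the opposite kind of cell: they spread on a matrix that they secrete themselves, pull on it with actin bundles and respond to wound signals. Rex1, the product of ZFP42, marks naive pluripotent cells in mouse and is lost when such cells move towards differentiation, and neural tissue is a frequent outcome when pluripotent cells leave that state.

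Marker genes were checked first. All 7 fibroblast markers with a row reached an FPKM of 1 in PEF, and their summed level was 28.5 FPKM in P10 and 3101 FPKM in PEF. Of 10 pluripotency markers only LIN28A and DNMT3B had a matched row, summing to 229 FPKM in P10 and 1.90 FPKM in PEF, so the check of pluripotency rests on few genes. LIN28A accounted for 204 FPKM of the P10 sum and 0.325 FPKM of the PEF sum. ZFP42, POU5F1, SOX2 and NANOG were not matched, and the Rex1 state was not checked. Of 8 neuron markers 7 had a row, summing to 790.1 FPKM in P10 and 64.1 FPKM in PEF. STMN2 accounted for 594 FPKM of the P10 sum and 19.7 FPKM of the PEF sum. SYT1 alone had the higher level in PEF, at 1.17 FPKM in P10 and 3.08 FPKM in PEF. The 5 neural progenitor markers with a row summed to 1228 FPKM in P10 and 5440 FPKM in PEF, of which VIM, a filament that fibroblasts also make, accounted for 969 FPKM in P10 and 5403 FPKM in PEF. Muscle markers summed to 13.5 FPKM in P10 and 750.0 FPKM in PEF, mostly from DES† in PEF, and MYOD1 was under 1 FPKM in both. The endothelial sum was 3.21 FPKM in P10 and 2.81 FPKM in PEF. The leukocyte sum was 1.29 FPKM in P10 and 3.73 FPKM in PEF, with PTPRC listed at 0 in both. The endoderm sum was 27.8 FPKM in P10 and 4.96 FPKM in PEF. Of that list only APOA1 was above 1 FPKM in P10, at 27.6 FPKM and 3.74 FPKM in PEF, while FOXA2 and TTR were listed at 0 in P10. Trophoblast markers summed to 8.33 FPKM in P10 and 9.26 FPKM in PEF, with CDX2 listed at 0 in both. The others differed in opposite directions, TFAP2C at 4.70 FPKM in P10 and 0.076 FPKM in PEF, GATA3 at 3.63 FPKM in P10 and 9.18 FPKM in PEF. HBB, of red blood cells, was listed at 0 in both. The part of other cell types in the results was not tested, and in bulk RNA fewer cells of a type and less RNA per cell cannot be told apart.

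The difference of a gene is given as P10 minus PEF in log2(FPKM + 1), where the pseudocount of 1 makes the difference of a low gene smaller than its fold. Genes count as higher or lower in P10 from a difference of 1, a 2-fold difference. On that count 5383 genes, 39.9% of those compared, differed. Of them 2678 were higher in P10, or 19.8%, and 2705 were lower, or 20%. Among the 8683 compared genes with a symbol, from which named genes come, 39.2% differed, 19.2% higher and 20.1% lower. The median difference was 0.05 over all compared genes. With FPKM rescaled to the sum without mitochondrial genome genes the median was 0.31, and 3586 genes counted as higher and 2245 as lower, so that 61.5% of the differing genes were higher in place of 49.7%. That rescaling rests largely on 1 gene, ATP8, at 173751 FPKM in P10 and 54233 FPKM in PEF. Differences of at least 5 were counted for 72 higher and 131 lower genes. Of the 13507 genes, 100 were listed at 0 in P10 and 308 in PEF. An exact 0 in such a table can be a failed estimate, so these genes enter the counts and no difference is given for them. A dagger (†) marks a gene that shares its locus with another gene ID, where the division of reads between them is uncertain. Depth is unknown, since the table holds no read counts.

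**Figure D1:**
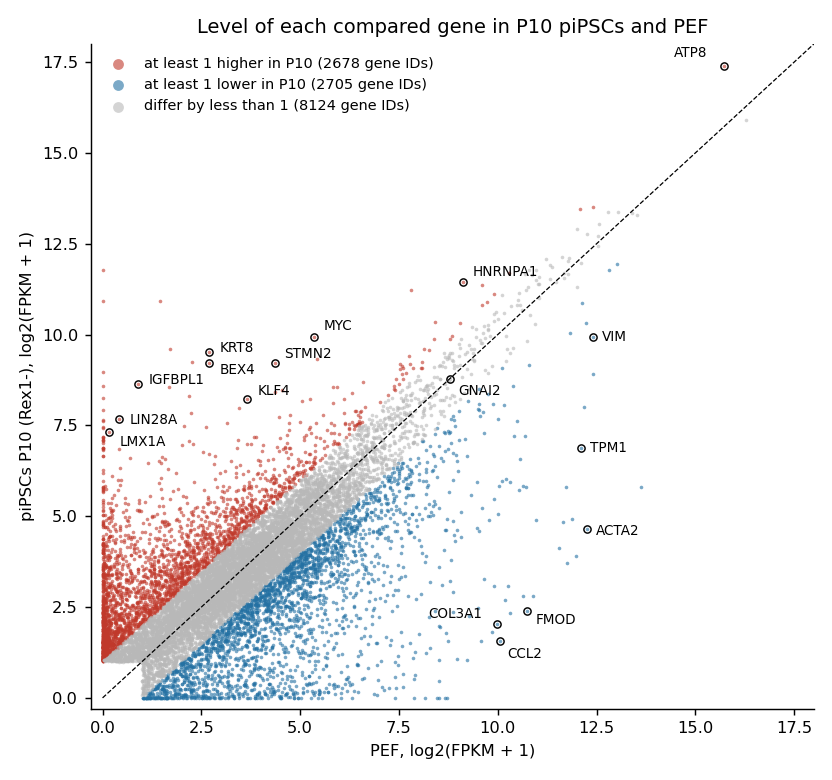
Level of each of the 13507 compared genes in piPSCs P10 (y axis) and in PEF (x axis), both in log2(FPKM + 1). Red points are the 2678 genes at least 1 higher in P10, blue points the 2705 genes at least 1 lower and grey points the rest; IGFBPL1, LIN28A and LMX1A lie near the left edge, VIM, TPM1 and ACTA2 at the right under the dashed line of equal levels.

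The shares of higher and lower genes differed with the level. Among the 846 genes with a mean of over 100 FPKM across the columns, 13.1% were higher and 31.2% lower in P10. Among the 1338 with a mean between 1 and 2 FPKM, 29.3% were higher and 13.3% lower. The 677 genes with a mean of at most 1 FPKM entered only through the column where they are higher and are not used here. The share of higher genes was smaller in each bin than in the one before up to a mean of 50 FPKM, and the share of lower genes was larger in each of the 7 bins than in the one before. At least 100 FPKM in P10 was reached by 180 of the higher genes, and at least 100 FPKM in PEF by 420 of the lower ones.

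**Figure D2:**
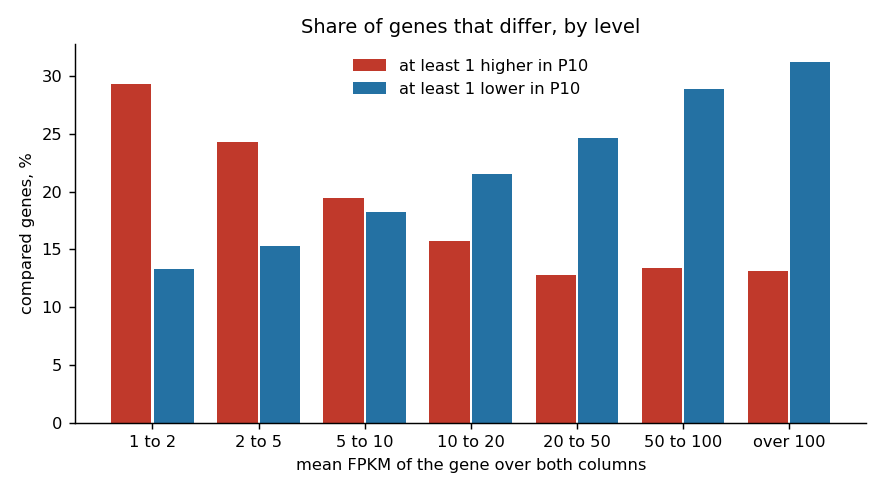
Share of compared genes (y axis, %) that were at least 1 higher (red) or at least 1 lower (blue) in P10, by the gene's mean FPKM over both columns (x axis). Genes with a mean of at most 1 FPKM are not drawn. In the bin of 1 to 2 FPKM 29.3% were higher and 13.3% lower, and in the highest bin 13.1% were higher and 31.2% lower.

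Among genes with a symbol and at least 5 FPKM in the higher column, the 20 with the highest differences included KRT8 and KRT18, the keratins of simple epithelia, and neural genes such as FABP7 and OTX2. Some IDs without a symbol differed by more and are not named. IGFBPL1, a relative of the IGF-binding proteins, was at 395 FPKM in P10 and 0.869 FPKM in PEF, a difference of 7.73 (chromosome 1, 267175370 to 267190286 on susScr3). LIN28A, an RNA-binding protein that blocks let-7 microRNA maturation, was at 204 FPKM in P10 and 0.325 FPKM in PEF (chromosome 6, 77358778 to 77371149). LMX1A, a transcription factor of roof plate and midbrain, was at 159 FPKM in P10 and 0.113 FPKM in PEF (chromosome 4, 93227596 to 93275883). These 3 genes were nearly silent in PEF. ESR1, which encodes estrogen receptor alpha, was at 133 FPKM in P10 and listed at 0 in PEF (chromosome 1, 16542367 to 16577180). CHGA, a core protein of hormone granules, was at 67.5 FPKM in P10 and 0.18 FPKM in PEF. EPHA3, a receptor for ephrins, was at 46.9 FPKM in P10 and 0.222 FPKM in PEF. Transcription factors were among the 20 as well, such as LMX1A and ESR1. SOX21, of neural progenitors, was at 42.8 FPKM in P10 and listed at 0 in PEF. The matrix glycoprotein THBS1 and the small nucleolar RNA SNORA52† were also among the 20, and both were listed at 0 in PEF.

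The 20 lowest differences under the same conditions included secreted and contractile products of fibroblasts. CCL2, a chemokine that attracts monocytes, was at 1.94 FPKM in P10 and 1061 FPKM in PEF, a difference of -8.50 (chromosome 12, 42514167 to 42516128). FMOD, a proteoglycan that binds collagen fibrils, was at 4.26 FPKM in P10 and 1699 FPKM in PEF (chromosome 9, 70356563 to 70367608). The path to prostaglandins was represented by 2 enzymes. PLA2G4A, which releases arachidonic acid, was at 1.35 FPKM in P10 and 288 FPKM in PEF, and PTGS2, which turns it into prostaglandin H, at 1.08 FPKM in P10 and 502 FPKM in PEF. CCN3, a matricellular protein, was at 1.97 FPKM in P10 and 427 FPKM in PEF. They also held 5 collagen genes. All 20 genes were at no more than 23.9 FPKM in P10 and at no less than 170.2 FPKM in PEF. Differences of this size require a high level in PEF, so that level follows from the choice of genes.

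**Figure D3:**
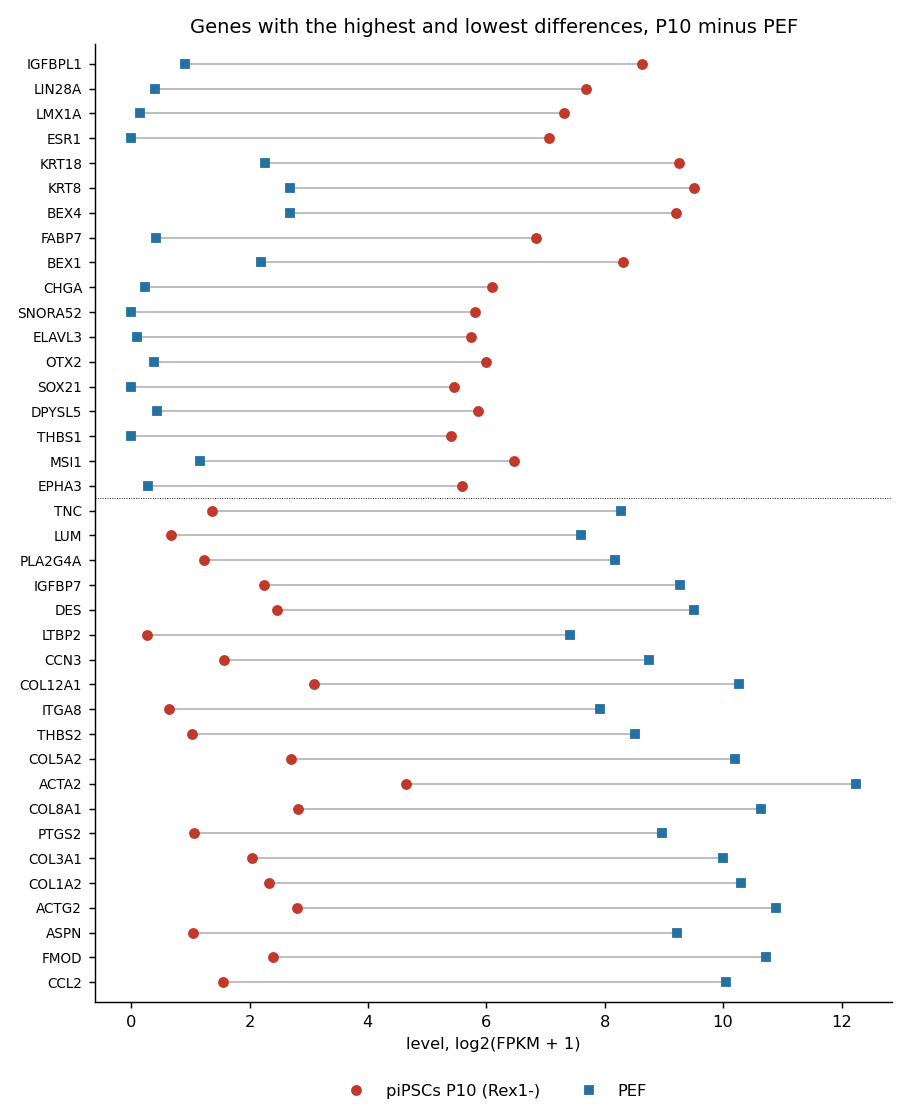
Level in log2(FPKM + 1) (x axis) of 18 of the 20 genes with the highest (top) and the 20 with the lowest difference (bottom) among genes with a symbol and at least 5 FPKM in the higher column. Red circles are P10 and blue squares PEF; squares at 0 are genes listed at 0 in PEF (ESR1, SNORA52, SOX21 and THBS1).

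Gene lists by function show the pattern across the table. Of 86 lists and families with compared members, 37 had a median difference of at least 1 in size, 17 above and 20 below 0, beside the median of 0.05 over all compared genes. Lists are described by counts and medians only. Their counts stand beside 19.8% higher and 20% lower over all compared genes, and counts near those shares say little about a list.

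**Figure D4:**
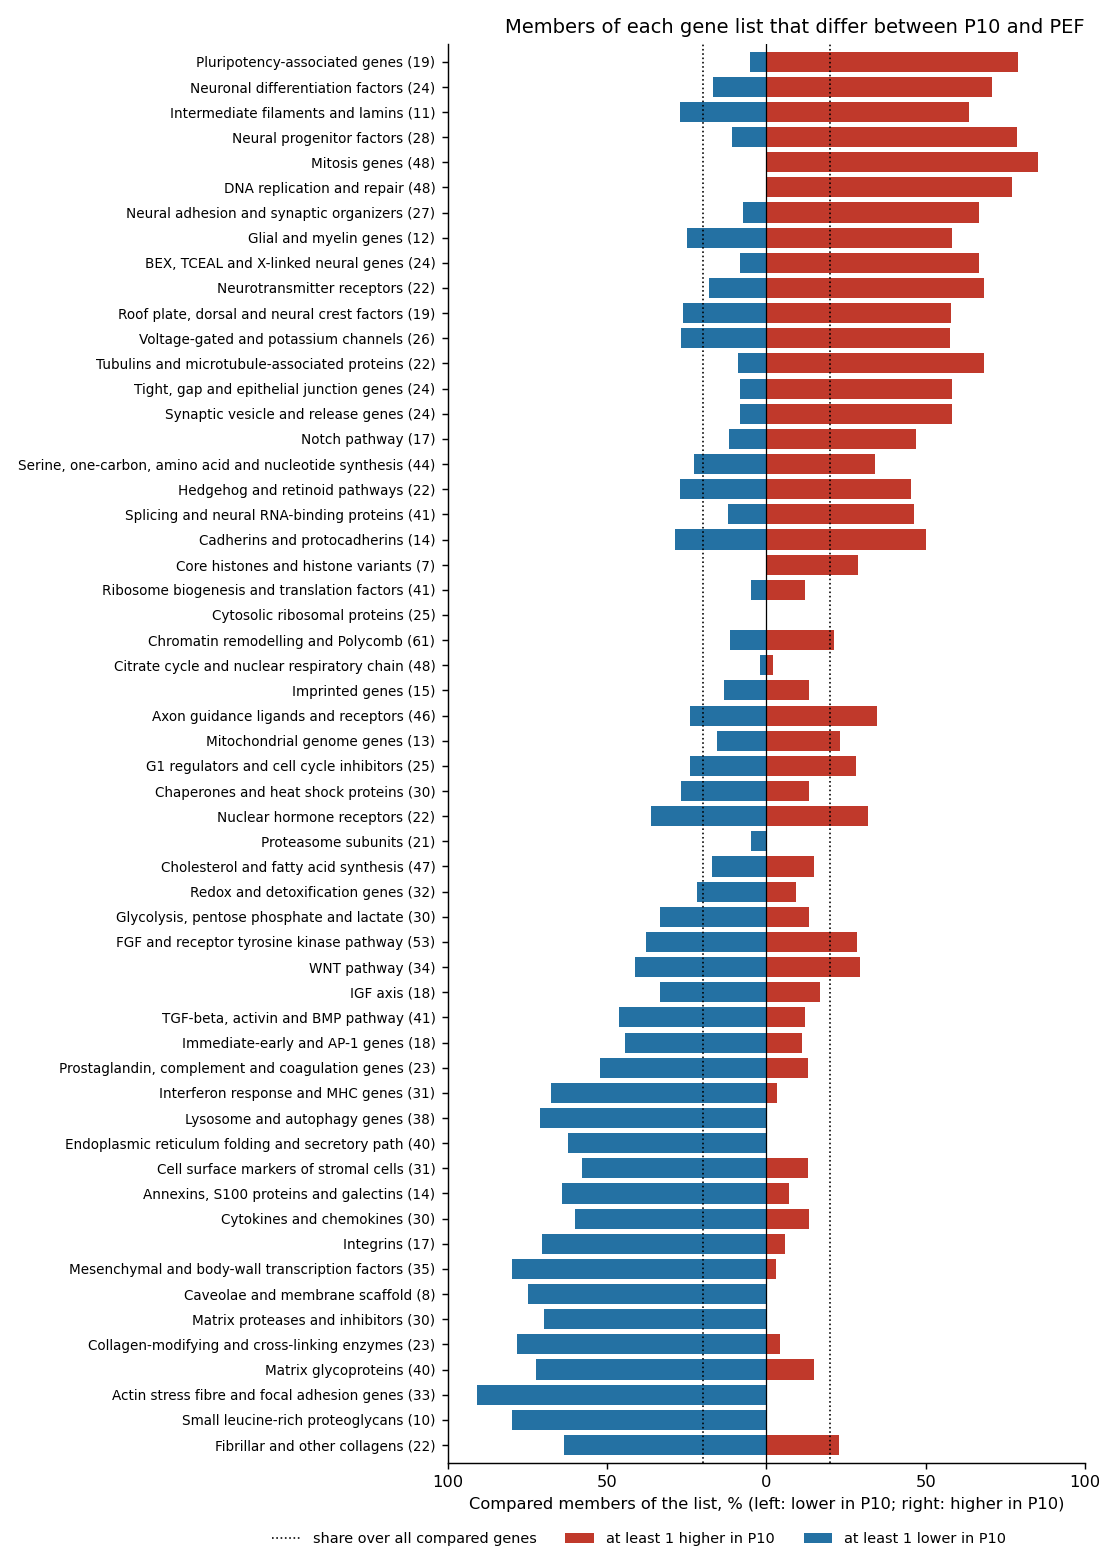
Compared members of each functional list (number in brackets) that were at least 1 higher (red, right) or at least 1 lower (blue, left) in P10, as a percentage of the list, ordered by median difference; dotted lines mark 19.8% and 20%, the shares over all compared genes. Pluripotency, neural and cell division lists stand at the top and actin, matrix and mesenchymal lists at the bottom.

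Collagens, the fibrous scaffold of connective tissue, were mostly lower in P10. Of 22 compared, 14 were lower and 5 higher, and the median was -4.93. COL1A2, from the main fibril of skin and bone, was at 4.05 FPKM in P10 and 1266 FPKM in PEF. COL8A1, of the subendothelial matrix, was at 6.05 FPKM in P10 and 1597 FPKM in PEF. Lower members with smaller differences included a basement membrane chain, COL4A2, at 50.4 FPKM in P10 and 182 FPKM in PEF, a difference of -1.83. The higher members were chains of cartilage and of basement membrane. COL11A2 was at 10.1 FPKM in P10 and listed at 0 in PEF, the highest level among them in P10. COL9A1 was at 7.38 FPKM in P10 and 0.0147 FPKM in PEF. COL2A1 was at 5.19 FPKM in P10 and 0.0262 FPKM in PEF. COL4A6 was at 3.94 FPKM in P10 and 0.0632 FPKM in PEF, and COL4A5 at 2.27 FPKM in P10 and 0.387 FPKM in PEF. COL5A3, a minor fibril chain, was level, at 1.75 FPKM in P10 and 1.67 FPKM in PEF.

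The enzymes that hydroxylate, trim and cross-link collagen were lower as well. Of 23 compared, 18 were lower and 1 higher, and the median was -2.69. P4HA3, a subunit of prolyl hydroxylase, was at 0.422 FPKM in P10 and 94.3 FPKM in PEF. LOX, which oxidises lysines to form cross-links, was at 8.75 FPKM in P10 and 179 FPKM in PEF. PLOD2, a lysyl hydroxylase, was at 5.60 FPKM in P10 and 117 FPKM in PEF. The member that was higher, P3H2, is a prolyl hydroxylase that acts on basement membrane collagen and was at 16.6 FPKM in P10 and 7.49 FPKM in PEF. Small leucine-rich proteoglycans, which coat fibrils, had 8 of 10 lower and 0 higher. LUM, lumican, was at 0.588 FPKM in P10 and 193 FPKM in PEF. ASPN†, asporin, was at 1.06 FPKM in P10 and 598 FPKM in PEF. BGN, biglycan, was at 51.4 FPKM in P10 and 1495 FPKM in PEF and kept the highest level of these proteoglycans in P10.

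Matrix glycoproteins had 29 of 40 lower and 6 higher, and the median was -2.97. THBS2, a thrombospondin, was at 1.05 FPKM in P10 and 365 FPKM in PEF. TNC, tenascin, was at 1.59 FPKM in P10 and 309.8 FPKM in PEF. TGFBI†, a matrix protein induced by TGF-beta, was at 2.88 FPKM in P10 and 370.5 FPKM in PEF. The higher members included proteins known from the nervous system. SPON1, F-spondin of the floor plate, was at 40.6 FPKM in P10 and 0.906 FPKM in PEF. SPARCL1, a product of astrocytes, was at 19.5 FPKM in P10 and 0.21 FPKM in PEF. MATN2†, a matrilin, was at 25.7 FPKM in P10 and 0.497 FPKM in PEF. FN1, fibronectin, was at 26.9 FPKM in P10 and listed at 0 in PEF, and THBS1 at 41.4 FPKM in P10 and listed at 0 in PEF. Fibronectin is a main product of cultured fibroblasts, and for these genes only the listing at 0 is reported. AGRN, agrin of synapses and basement membranes, was level, at 9.03 FPKM in P10 and 9.21 FPKM in PEF. Of 6 laminins compared, 1 was higher and 4 were lower. Proteases and their inhibitors had 21 of 30 lower and 0 higher. PLAU, the urokinase that activates plasminogen, was at 0.84 FPKM in P10 and 71.8 FPKM in PEF. MMP1, a collagenase, was at 0.116 FPKM in P10 and 87.6 FPKM in PEF. ADAM17†, which sheds growth factors from the surface, was level, at 22.3 FPKM in P10 and 22.4 FPKM in PEF.

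Adhesion to the matrix and the actin apparatus behind it were lower in P10. Integrins, the matrix receptors, had 12 of 17 lower and 1 higher, and the median was -2.18. ITGA8, a receptor for fibronectin and nephronectin, was at 0.559 FPKM in P10 and 240.3 FPKM in PEF. ITGA11, a receptor for collagen, was at 0.874 FPKM in P10 and 85.5 FPKM in PEF. ITGA1†, also a collagen receptor, was at 0.412 FPKM in P10 and 125 FPKM in PEF. The integrin that was higher, ITGB2, is the beta chain of leukocytes and was at 9.68 FPKM in P10 and 0.405 FPKM in PEF. PTPRC, present on all leukocytes, was listed at 0 in both columns. Of 33 stress fibre and focal adhesion genes 30 were lower and 0 higher, and the median was -3.15. ACTA2, smooth muscle actin, was at 23.9 FPKM in P10 and 4863 FPKM in PEF. TPM2, a tropomyosin, was at 27.5 FPKM in P10 and 3201 FPKM in PEF. CALD1, caldesmon, was at 54.4 FPKM in P10 and 3398 FPKM in PEF. The list also holds the non-muscle actins, with smaller differences. ACTG1 was at 1279 FPKM in P10 and 4801 FPKM in PEF, a difference of -1.91. ACTB was at 577 FPKM in P10 and 1776 FPKM in PEF, a difference of -1.62. The members that differed by less than 1 were CNN3†, PDLIM3 and CSRP2, and CNN3, a calponin of non-muscle cells, was at 331 FPKM in P10 and 344 FPKM in PEF. Caveolae, membrane pits held by caveolins and cavins, had 6 of 8 members lower and 0 higher. CAVIN3 was at 0.491 FPKM in P10 and 72.7 FPKM in PEF. CAV1 was at 1.17 FPKM in P10 and 31.1 FPKM in PEF. Annexins, S100 proteins and galectins, which bind calcium, membranes or sugars, had 9 of 14 lower and 1 higher. S100A6 was at 5.62 FPKM in P10 and 241 FPKM in PEF. The higher member, S100A10, was at 777 FPKM in P10 and 281 FPKM in PEF.

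Tubulins and microtubule-associated proteins were more often higher, 15 of 22, with 2 lower. DPYSL5, a collapsin response mediator of growing axons, was at 56.9 FPKM in P10 and 0.357 FPKM in PEF. KIF5C, a kinesin of neurons, was at 90.9 FPKM in P10 and 1.70 FPKM in PEF. DCX, doublecortin of migrating neurons, was at 44.4 FPKM in P10 and 1.84 FPKM in PEF. The lower members were MAP1A and MAP4, the microtubule-associated protein of non-neuronal cells, which was at 1.08 FPKM in P10 and 9.20 FPKM in PEF. Among general tubulins, TUBB was at 271 FPKM in P10 and 202 FPKM in PEF. Intermediate filaments and lamins split, 7 of 11 higher and 3 lower. KRT8, a keratin of simple epithelia, was at 727 FPKM in P10 and 5.46 FPKM in PEF. KRT18†, its partner, was at 606 FPKM in P10 and 3.82 FPKM in PEF. PRPH, peripherin of peripheral neurons, was at 38.7 FPKM in P10 and 0.268 FPKM in PEF. The lower filaments were those of muscle and mesenchyme. DES†, desmin, was at 4.51 FPKM in P10 and 727 FPKM in PEF. VIM, vimentin, was at 969 FPKM in P10 and 5403 FPKM in PEF. Lamins of the nuclear envelope went different ways. LMNA, which increases with tissue stiffness, was at 31.9 FPKM in P10 and 329 FPKM in PEF. LMNB1 was at 167 FPKM in P10 and 36.1 FPKM in PEF. NES, nestin, was level, at 27.2 FPKM in P10 and 27.8 FPKM in PEF.

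Genes of cell-to-cell contact went both ways. Of 14 cadherins and protocadherins 7 were higher and 4 lower. CDH11, the cadherin of mesenchyme, was at 29.3 FPKM in P10 and 423 FPKM in PEF. CDH10, a cadherin of neurons, was at 11.3 FPKM in P10 and 0.0682 FPKM in PEF. CDH1, E-cadherin of epithelia, was at 7.89 FPKM in P10 and 0.103 FPKM in PEF. Tight, gap and epithelial junction genes had 14 of 24 higher and 2 lower. DSP†, desmoplakin of desmosomes, was at 30.6 FPKM in P10 and 0.47 FPKM in PEF. PROM1, a protein of apical membrane protrusions, was at 11.9 FPKM in P10 and 1.37 FPKM in PEF. On the lower side GJA1, the connexin of fibroblasts and astrocytes, was at 24.7 FPKM in P10 and 710.2 FPKM in PEF. Another gap junction gene, GJC1, was level, at 48.3 FPKM in P10 and 49.8 FPKM in PEF.

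Neural genes made up a main block on the higher side. Of 28 neural progenitor factors 22 were higher and 3 lower, and the median was 1.76. FABP7, the fatty acid-binding protein of radial glia, was at 114 FPKM in P10 and 0.343 FPKM in PEF. MSI1†, an RNA-binding protein of neural stem cells, was at 87.5 FPKM in P10 and 1.23 FPKM in PEF. OTX2, a factor of forebrain and midbrain, was at 63.0 FPKM in P10 and 0.312 FPKM in PEF. All 5 ZIC zinc finger genes compared, which act in the dorsal neural tube, were higher, and the median was 4.24. ZIC1 had the highest level, 188 FPKM in P10 and 25.4 FPKM in PEF. ZIC2 was at 109 FPKM in P10 and 4.81 FPKM in PEF. ZIC5 was at 35.0 FPKM in P10 and 0.828 FPKM in PEF. The lower progenitor genes were SFRP1, LHX9 and LHX2. SFRP1, an antagonist of WNT proteins, was at 7.57 FPKM in P10 and 387 FPKM in PEF. LHX2, of the forebrain and eye field, was at 0.05 FPKM in P10 and 2.49 FPKM in PEF. Roof plate, dorsal and neural crest factors, which pattern the back of the neural tube, had 11 of 19 higher and 5 lower, and the median was 1.30. PAX3, a factor of dorsal progenitors and crest, was at 24.5 FPKM in P10 and 0.352 FPKM in PEF. WNT1, the signal of roof plate and midbrain, was at 11.4 FPKM in P10 and listed at 0 in PEF. RSPO2, which enhances WNT signals, was at 9.41 FPKM in P10 and 0.061 FPKM in PEF. Among the lower members was ETS1, which fibroblasts and vessels use as well, at 3.38 FPKM in P10 and 58.8 FPKM in PEF.

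Factors of neuronal differentiation had 17 of 24 higher and 4 lower, and the median was 1.96. ELAVL3, an RNA-binding protein of neurons, was at 52.8 FPKM in P10 and 0.0658 FPKM in PEF. ELAVL2, its relative, was at 14.6 FPKM in P10 and 0.0192 FPKM in PEF. NEUROG1, which starts sensory neuron fates, was at 25.8 FPKM in P10 and listed at 0 in PEF. Of the higher members 6 were listed at 0 in PEF, and most stayed under 10 FPKM in P10. NEUROD1, a later differentiation factor, was at 3.29 FPKM in P10 and 0.0297 FPKM in PEF. POU4F1, of sensory neurons, was at 3.07 FPKM in P10 and 0.0635 FPKM in PEF. RUNX1T1 and NR4A2 were on the lower side, and RUNX1T1 was at 0.63 FPKM in P10 and 38.7 FPKM in PEF. Neural adhesion genes and synaptic organizers had 18 of 27 higher and 2 lower. NRCAM, an adhesion protein of axons, was at 35.3 FPKM in P10 and 0.518 FPKM in PEF. NCAM1, the neural cell adhesion molecule, was at 145 FPKM in P10 and 13.2 FPKM in PEF. ASTN1, used by neurons that migrate along glia, was at 10.5 FPKM in P10 and 0.0142 FPKM in PEF. The lower members were ALCAM and TENM3.

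Lists of mature neuron genes had more higher than lower members. Many of their genes were too low to be compared, 24 of 46 neurotransmitter receptors with a row for instance, and a low gene that entered through P10 alone had to be on the higher side. Synaptic vesicle and release genes had 14 of 24 higher and 2 lower. SYP, synaptophysin of vesicles, was at 20.5 FPKM in P10 and 0.738 FPKM in PEF. SYT1, the main calcium sensor of forebrain synapses, was at 1.17 FPKM in P10 and 3.08 FPKM in PEF, so it had the higher level in PEF. Of 22 neurotransmitter receptors 15 were higher and 4 lower. CHRNA3, a nicotinic subunit, had the largest difference, at 6.39 FPKM in P10 and 0.105 FPKM in PEF. ADRA2A, an adrenergic receptor, was at 0.0231 FPKM in P10 and 4.91 FPKM in PEF. Voltage-gated and potassium channels had 15 of 26 higher and 7 lower. SCN1A, a sodium channel of neurons, was at 19.5 FPKM in P10 and 0.015 FPKM in PEF, and no other higher channel reached 10 FPKM in P10. KCNK2, a stretch-sensitive potassium channel, was at 0.52 FPKM in P10 and 25.7 FPKM in PEF. KCNMA1, the large calcium-activated potassium channel, was at 1.34 FPKM in P10 and 16.1 FPKM in PEF. The median of the channels was 1.28, but -2.87 among those with a mean of at least 5 FPKM, so the direction of their median turned with the filter. Medians of the synaptic vesicle, neurotransmitter receptor and glial lists, 1.04, 1.31 and 1.45, were 0.43, 0.45 and 0.48 with a pseudocount of 5 and 0.61, 0.06 and 0.13 with no filter on low FPKM. With a mean of at least 5 FPKM they were 1.70, 0.07 and 0.09. The medians of the neuronal differentiation, roof plate and neural adhesion lists were also under 1 with a pseudocount of 5 and with no filter. Glial and myelin genes had 7 of 12 higher and 3 lower. GPM6A, a membrane protein of neurons and glia, was at 15.04 FPKM in P10 and 0.168 FPKM in PEF. PTPRZ1, a phosphatase of radial glia, was at 13.7 FPKM in P10 and 0.136 FPKM in PEF. CLU, clusterin, was lower, at 55.3 FPKM in P10 and 1670.2 FPKM in PEF.

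Axon guidance molecules went both ways. Of 46 compared 16 were higher and 11 lower, and the median was 0.20. Eph receptors had 4 of 8 higher and 0 lower. EPHA7 was at 23.2 FPKM in P10 and 0.144 FPKM in PEF. RGMA, a repulsive guidance molecule, was at 99.7 FPKM in P10 and 6.15 FPKM in PEF. DRAXIN, which repels commissural axons, was at 15.9 FPKM in P10 and 0.0388 FPKM in PEF. Of 14 semaphorins 4 were higher and 3 lower, beside 19.8% and 20% over all compared genes. The lower ones were secreted members, but SEMA3B, also secreted, was level, at 9.87 FPKM in P10 and 9.88 FPKM in PEF. SEMA3D was at 1.45 FPKM in P10 and 38.1 FPKM in PEF. SEMA3A was at 0.0809 FPKM in P10 and 13.9 FPKM in PEF. SEMA5B†, a membrane-bound member, was at 24.9 FPKM in P10 and 0.0512 FPKM in PEF. Their receptor NRP2 was also lower, at 7.96 FPKM in P10 and 104 FPKM in PEF. SLIT2, the repellent of the midline, was level, at 21.1 FPKM in P10 and 21.6 FPKM in PEF.

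WNT proteins bind Frizzled receptors with LRP partners and stabilise beta-catenin, and secreted SFRP and DKK proteins hold them back. The pathway list had 10 higher and 14 lower of 34. Of 7 ligands 4 were higher and 2 lower. WNT3 was at 3.89 FPKM in P10 and 0.105 FPKM in PEF. WNT5B was at 5.996 FPKM in P10 and 42.7 FPKM in PEF. Receptors went both ways. FZD10, of the dorsal neural tube, was at 39.1 FPKM in P10 and 0.567 FPKM in PEF. FZD6 was at 2.13 FPKM in P10 and 9.27 FPKM in PEF. LGR4, a receptor for R-spondins, was at 29.2 FPKM in P10 and 4.62 FPKM in PEF. All 4 secreted antagonists compared were lower. DKK3 was at 14.9 FPKM in P10 and 272 FPKM in PEF. SFRP2 was at 41.5 FPKM in P10 and 332 FPKM in PEF. Among transcriptional targets of the pathway, AXIN2 was at 45.6 FPKM in P10 and 3.34 FPKM in PEF. WLS, the carrier that brings WNT proteins to the surface, was level, at 91.7 FPKM in P10 and 91.0 FPKM in PEF.

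Notch signals pass between neighbouring cells and keep progenitors from differentiating all at once. The list had 8 of 17 higher and 2 lower. JAG1, a ligand, was at 189 FPKM in P10 and 7.88 FPKM in PEF. DNER, a ligand of neurons, was at 98.5 FPKM in P10 and 1.83 FPKM in PEF. LFNG, which modifies the receptors, was at 16.2 FPKM in P10 and 2.15 FPKM in PEF. The receptor NOTCH2 was lower, at 10.7 FPKM in P10 and 40.5 FPKM in PEF. Among genes of the HES and HEY class HES6, found in neural progenitors, was at 86.2 FPKM in P10 and 6.06 FPKM in PEF. HEY2, of vessels and heart, was at 0.258 FPKM in P10 and 20.8 FPKM in PEF. Hedgehog and retinoid genes had 10 of 22 higher and 6 lower. A binding protein and a co-receptor were among the higher members, while CRABP2 and RBP4 had the higher level in PEF. CRABP1, which binds retinoic acid, was at 354 FPKM in P10 and 22.5 FPKM in PEF. CDON, a co-receptor for Hedgehog proteins, was at 35.8 FPKM in P10 and 2.82 FPKM in PEF. Lower members included genes of retinoid supply and breakdown. CYP26B1, which degrades retinoic acid, was at 0.08 FPKM in P10 and 16.3 FPKM in PEF. STRA6, which imports retinol, was at 0.223 FPKM in P10 and 11.6 FPKM in PEF. ALDH1A1, a maker of retinoic acid, was listed at 0 in P10 and 3.95 FPKM in PEF.

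TGF-beta, activin and BMP genes had 5 higher and 19 lower of 41. TGFBR2, the type II receptor, was at 0.889 FPKM in P10 and 40.5 FPKM in PEF. All 3 latent TGF-beta binding proteins compared, which store the factor in the matrix, were lower. LTBP2 was at 0.207 FPKM in P10 and 170.2 FPKM in PEF. LTBP1 was at 9.13 FPKM in P10 and 188 FPKM in PEF. The 5 higher members belong to the activin and BMP side. FST, follistatin, which traps activin, was at 126 FPKM in P10 and 3.85 FPKM in PEF. ACVR2B, an activin receptor, was at 19.8 FPKM in P10 and 1.26 FPKM in PEF. BMP5 was at 12.2 FPKM in P10 and 0.028 FPKM in PEF. BMP7 was also higher, at 15.2 FPKM in P10 and 0.365 FPKM in PEF. The signal transducer SMAD4 was at 27.9 FPKM in P10 and 38.8 FPKM in PEF.

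The FGF and receptor tyrosine kinase list had 15 higher and 20 lower of 53. All 3 FGF receptors compared were higher. FGFR1 was at 133 FPKM in P10 and 47.9 FPKM in PEF. FGFR2 was at 124 FPKM in P10 and 40.6 FPKM in PEF. FGFR3 was at 38.3 FPKM in P10 and 1.87 FPKM in PEF. Other receptors were higher or lower. NTRK2, the receptor for BDNF, was at 11.3 FPKM in P10 and 0.0457 FPKM in PEF. ERBB4, a receptor for neuregulins, was at 14.2 FPKM in P10 and 0.345 FPKM in PEF. PDGFRA, the platelet-derived growth factor receptor alpha, was at 5.31 FPKM in P10 and 107 FPKM in PEF. MET, the receptor for HGF, was at 0.254 FPKM in P10 and 8.59 FPKM in PEF. Lower ligands included growth factors of wound healing. VEGFA was at 13.8 FPKM in P10 and 290.3 FPKM in PEF. AREG, amphiregulin, was at 0.0696 FPKM in P10 and 57.8 FPKM in PEF. In the IGF axis 3 of 18 were higher and 6 lower. Of 5 IGF-binding proteins compared, IGFBPL1 included, 1 was higher and 3 were lower, and IGFBP6 was at 22.1 FPKM in P10 and 29.1 FPKM in PEF. IGFBP7† was at 3.75 FPKM in P10 and 619 FPKM in PEF. IGFBP4 was at 1.16 FPKM in P10 and 231 FPKM in PEF. The ligand IGF1 was at 0.0738 FPKM in P10 and 24.1 FPKM in PEF. IGF2BP1†, a fetal mRNA-binding protein, was higher, at 75.2 FPKM in P10 and 11.9 FPKM in PEF.

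Genes of inflammation and defence were mostly lower. Cytokines, chemokines and their receptors had 18 of 30 lower and 4 higher, and the median was -1.78. IL1R1, the interleukin 1 receptor, was at 0.25 FPKM in P10 and 25.3 FPKM in PEF. OSMR, the oncostatin M receptor, was at 0.173 FPKM in P10 and 20.6 FPKM in PEF. CXCL8, a chemokine for neutrophils, was listed at 0 in P10 and 4.19 FPKM in PEF. The higher members included a neural receptor. CNTFR, for ciliary neurotrophic factor, was at 30.3 FPKM in P10 and 0.591 FPKM in PEF. The interleukin family by name had 12 of 18 lower and 0 higher. Prostaglandin, complement and coagulation genes had 12 of 23 lower and 3 higher. PTGES, which makes prostaglandin E, was at 2.82 FPKM in P10 and 65.5 FPKM in PEF. PTGIS, which makes prostacyclin, was at 19.97 FPKM in P10 and 0.924 FPKM in PEF. These 2 synthases act downstream of PTGS2 and differed in opposite directions. Interferon response and MHC genes had 21 of 31 lower and 1 higher. IFNGR1, a receptor chain for interferon gamma, was at 2.91 FPKM in P10 and 29.5 FPKM in PEF. MX1, an antiviral GTPase, was at 9.58 FPKM in P10 and 55.6 FPKM in PEF. The higher member, SLA-DMB of the class II MHC path, was at 1.35 FPKM in P10 and 0.0565 FPKM in PEF. Of the immediate-early and AP-1 genes, which respond to serum and stress, 8 of 18 were lower and 2 higher. JUNB was at 6.13 FPKM in P10 and 68.7 FPKM in PEF. DUSP1, a phosphatase of MAP kinases, was at 11.3 FPKM in P10 and 116 FPKM in PEF. The higher members were MYC and KLF4, which are also reprogramming factors. MYC was at 981 FPKM in P10 and 40.1 FPKM in PEF. FOS was level, at 7.41 FPKM in P10 and 8.25 FPKM in PEF.

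Transcription factors of mesenchyme and body wall had 28 of 35 lower and 1 higher, and the median was -2.28. PRRX2, of limb and craniofacial mesenchyme, was at 1.78 FPKM in P10 and 104 FPKM in PEF. MKX, of tendon, was at 1.41 FPKM in P10 and 32.7 FPKM in PEF. All 4 T-box genes compared were lower. TBX5, of forelimb and heart, was at 0.0391 FPKM in P10 and 8.80 FPKM in PEF. TBX2, of limb and body wall, was at 0.21 FPKM in P10 and 23.3 FPKM in PEF. The higher member of the mesenchymal list, EYA2†, a transcriptional coactivator, was at 14.4 FPKM in P10 and 3.40 FPKM in PEF. Of 6 SOX genes 4 were higher and 0 lower. SOX11, of young neurons, was at 51.2 FPKM in P10 and 9.45 FPKM in PEF. SOX13 was at 20.8 FPKM in P10 and 0.364 FPKM in PEF. Nuclear hormone receptors went both ways, 7 higher and 8 lower of 22. NR6A1, the germ cell nuclear factor, was at 15.8 FPKM in P10 and 1.03 FPKM in PEF. VDR, the vitamin D receptor, was at 0.0379 FPKM in P10 and 4.12 FPKM in PEF. NR3C1, the glucocorticoid receptor, was at 1.23 FPKM in P10 and 7.22 FPKM in PEF.

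HOX genes, which give cells their position along the body axis, were mostly lower. Of 20 compared 14 were lower and 3 higher, and the median was -1.69. HOXB6 was at 0.096 FPKM in P10 and 32.8 FPKM in PEF, a difference of -4.94. HOXA5 was at 0.187 FPKM in P10 and 17.9 FPKM in PEF. HOXC6 was at 1.93 FPKM in P10 and 15.7 FPKM in PEF. These genes belong to the trunk. The 3 higher genes belong to the hindbrain and neck, but other genes of paralogue groups 1 to 4 were lower. HOXA2† was at 3.67 FPKM in P10 and 0.772 FPKM in PEF. HOXD3 was at 6.12 FPKM in P10 and 1.70 FPKM in PEF. HOXD4 was at 11.3 FPKM in P10 and 3.99 FPKM in PEF. Their differences were smaller in size than those of HOXB6, HOXA5 and HOXC6, with 1.40 for HOXA2 and -2.51 for HOXC6. In paralogue groups 1 to 4, 3 of 8 genes were higher, 3 were lower and the median difference was -0.63. The lower ones were HOXA3, HOXB3 and HOXB4, with differences of -1.42, -1.78 and -2.85. In groups 5 to 13, 0 of 12 were higher and 11 lower, and the median difference was -2.33. The split at group 4 was chosen after the values were seen.

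**Figure D5:**
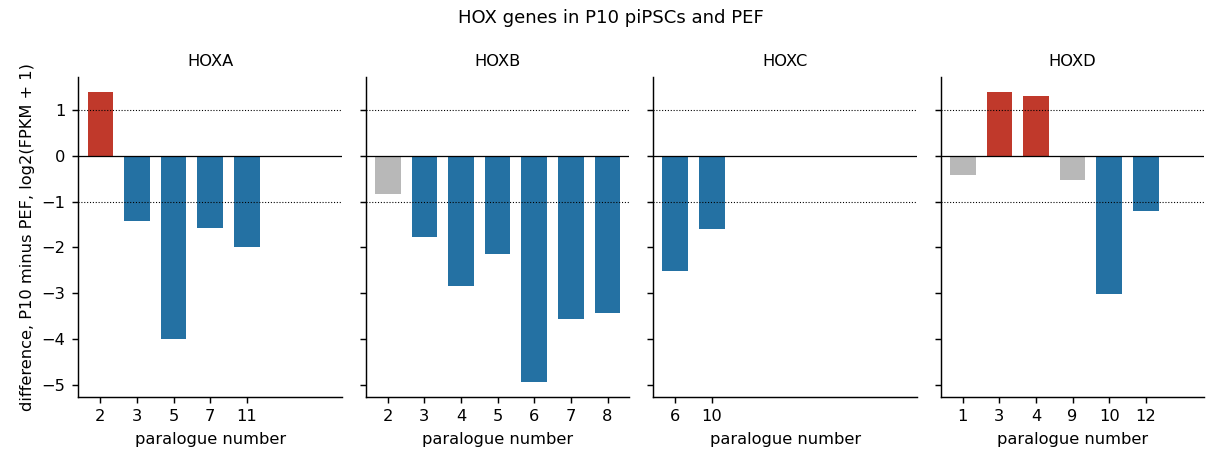
Difference P10 minus PEF in log2(FPKM + 1) (y axis) for the 20 compared HOX genes, by cluster and paralogue number (x axis, evenly spaced in number order). Red bars are at least 1 higher, blue bars at least 1 lower, grey bars between; dotted lines mark 1 and -1, and the red bars are HOXA2, HOXD3 and HOXD4.

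Cell division genes were higher in most cases. DNA replication and repair had 37 of 48 higher and 0 lower, and the median was 1.57. MCM2, a subunit of the replicative helicase, was at 52.2 FPKM in P10 and 4.89 FPKM in PEF. CDC45, which activates that helicase, was at 41.5 FPKM in P10 and 7.34 FPKM in PEF. UHRF1, which brings DNA methyltransferase to new strands, was at 71.9 FPKM in P10 and 9.31 FPKM in PEF. Mitosis genes had 41 of 48 higher and 0 lower, and the median was 1.61. NEK2, a centrosome kinase, was at 40.3 FPKM in P10 and 5.27 FPKM in PEF. TOP2A, the topoisomerase of dividing cells, was at 92.4 FPKM in P10 and 14.2 FPKM in PEF. CCNA1, a cyclin of germ cells, was at 4.02 FPKM in P10 and 0.0742 FPKM in PEF. Some members differed by less than 1. RPA1, which coats single-stranded DNA, was level, at 24.4 FPKM in P10 and 23.6 FPKM in PEF. ANLN, of the cleavage furrow, was at 11.8 FPKM in P10 and 17.6 FPKM in PEF, a difference of -0.53. Among regulators of G1 7 of 25 were higher and 6 lower, or 28% and 24%, beside 19.8% and 20% over all compared genes. MYCN was at 18.7 FPKM in P10 and 0.25 FPKM in PEF. E2F7, a repressor of the E2F family, was at 9.17 FPKM in P10 and 1.05 FPKM in PEF. CDKN2A, an inhibitor linked to senescence, was at 4.03 FPKM in P10 and 19.4 FPKM in PEF.

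Chromatin genes had 13 higher and 7 lower of 61, or 21.3% and 11.5%, beside 19.8% and 20% over all compared genes. CHD7, a remodeller of neural crest and progenitors, was at 64.6 FPKM in P10 and 6.13 FPKM in PEF. DNMT3B, which methylates new sites in DNA, was at 24.4 FPKM in P10 and 1.57 FPKM in PEF. EZH2, the Polycomb methyltransferase, was at 51.4 FPKM in P10 and 11.02 FPKM in PEF. Its partner EED was level, at 10.6 FPKM in P10 and 10.4 FPKM in PEF. ARID5B was lower, at 3.11 FPKM in P10 and 111 FPKM in PEF. Splicing and neural RNA-binding proteins had 19 of 41 higher and 5 lower. SRRM4, which includes neuronal exons, was at 12.6 FPKM in P10 and 0.0333 FPKM in PEF. HNRNPA1, an abundant repressor of exons, was at 2808 FPKM in P10 and 559 FPKM in PEF. Of the muscleblind genes, which favour exon choices of differentiated tissue, MBNL1 and MBNL2 were lower and MBNL3 was level. MBNL1 was at 8.15 FPKM in P10 and 87.0 FPKM in PEF. MBNL2 was at 8.10 FPKM in P10 and 38.0 FPKM in PEF. MBNL3 was at 3.02 FPKM in P10 and 2.92 FPKM in PEF.

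Machinery that every cell uses differed little in some parts and more in others. Of 25 cytosolic ribosomal protein genes 0 were higher and 0 lower by 1, and the median was 0.46. RPS23 was at 634 FPKM in P10 and 673 FPKM in PEF. RPL11 was at 952 FPKM in P10 and 819 FPKM in PEF. Mitochondrial ribosomal proteins had 4 of 44 higher and 1 lower. Ribosome biogenesis and translation factors had 5 of 41 higher and 2 lower. FBL, fibrillarin of the nucleolus, was at 188 FPKM in P10 and 41.0 FPKM in PEF. EIF4EBP1, a repressor of translation, was at 32.6 FPKM in P10 and 226 FPKM in PEF. Proteasome subunits had 0 higher and 1 lower of 21, and their median of -0.19 had the other sign under quantile normalization and with the mitochondrial rescaling. PSMD1 was at 45.8 FPKM in P10 and 45.4 FPKM in PEF. The secretory path differed more. Endoplasmic reticulum folding and transport genes had 25 of 40 lower and 0 higher, and the median was -1.31. KDELR3, which returns escaped proteins to the reticulum, was at 9.96 FPKM in P10 and 137 FPKM in PEF. CALU, calumenin, was at 147 FPKM in P10 and 1358 FPKM in PEF. CREB3L1, a transcription factor that raises secretory genes, was at 1.85 FPKM in P10 and 33.6 FPKM in PEF. Lysosome and autophagy genes had 27 of 38 lower and 0 higher, and the median was -1.31. CTSC, cathepsin C, was at 0.335 FPKM in P10 and 39.0 FPKM in PEF. LAMP2, of the lysosome membrane, was at 18.3 FPKM in P10 and 101 FPKM in PEF. GABARAPL1, of autophagosomes, was level, at 98.7 FPKM in P10 and 97.4 FPKM in PEF. Chaperones had 4 of 30 higher and 8 lower. HSP90AB1† was on the higher side, at 937 FPKM in P10 and 337 FPKM in PEF. HSPH1 was on the lower side, at 21.6 FPKM in P10 and 74.3 FPKM in PEF.

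Metabolic lists differed in part of their enzymes. In glycolysis and the pentose phosphate path 10 of 30 were lower and 4 higher. LDHA, lactate dehydrogenase A, was at 204 FPKM in P10 and 1023 FPKM in PEF. PDK4, which closes pyruvate entry into the citrate cycle, was at 39.9 FPKM in P10 and 0.168 FPKM in PEF. ENO2, the enolase of neurons, was at 23.0 FPKM in P10 and 6.71 FPKM in PEF. Of 48 citrate cycle and nuclear respiratory chain genes 1 was higher and 1 lower. The higher one was UQCRFS1, of complex III, at 31.7 FPKM in P10 and 12.1 FPKM in PEF. The lower one was SUCLA2, of the citrate cycle, at 49.0 FPKM in P10 and 108 FPKM in PEF. Genes of the mitochondrial genome had 3 of 13 higher and 2 lower. ATP8†, of ATP synthase, had the largest difference among them and the highest level, 173751 FPKM in P10 and 54233 FPKM in PEF. Mitochondrial genome genes together took 31.1% of the summed FPKM in P10 and 15.7% in PEF. ATP8 alone held 173751 of the summed 826083 FPKM in P10 and 54233 of the summed 821130 FPKM in PEF. The difference in share therefore rests largely on this gene, whose value is uncertain because it shares its locus. COX2, of complex IV, was at 11254 FPKM in P10 and 4365 FPKM in PEF. CYTB, of complex III, was at 2053 FPKM in P10 and 2113 FPKM in PEF. Amino acid, one-carbon and nucleotide synthesis had 15 of 44 higher and 10 lower. Purine synthesis enzymes were among the higher ones. PPAT, the first committed step, was at 10.6 FPKM in P10 and 1.09 FPKM in PEF. PAICS was at 115 FPKM in P10 and 22.5 FPKM in PEF. ATIC, which completes the ring, was at 65.7 FPKM in P10 and 18.4 FPKM in PEF. The enzymes of serine synthesis were lower. PHGDH, the entry step, was at 18.3 FPKM in P10 and 49.7 FPKM in PEF. PSAT1 was at 14.9 FPKM in P10 and 186 FPKM in PEF. PSPH was at 12.7 FPKM in P10 and 47.3 FPKM in PEF. GLDC, of glycine cleavage, was at 36.2 FPKM in P10 and 4.02 FPKM in PEF. ASS1, of arginine synthesis, was at 25.1 FPKM in P10 and 0.0784 FPKM in PEF. Cholesterol and fatty acid genes had 7 of 47 higher and 8 lower, or 14.9% and 17%, beside 19.8% and 20% over all compared genes. APOE†, a lipid carrier, was at 72.3 FPKM in P10 and 2.63 FPKM in PEF. LIPG, the endothelial lipase, was at 8.07 FPKM in P10 and 155 FPKM in PEF. FDFT1, of sterol synthesis, was level, at 84.8 FPKM in P10 and 86.4 FPKM in PEF. Redox genes had 3 of 32 higher and 7 lower. SOD3†, an extracellular superoxide dismutase, was at 0.335 FPKM in P10 and 13.6 FPKM in PEF.

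Pluripotency-associated genes had 15 of 19 higher and 1 lower, and the median was 2.10, but under 1 with a pseudocount of 5. SALL1 was at 46.2 FPKM in P10 and 1.32 FPKM in PEF. KLF4 was at 299 FPKM in P10 and 11.6 FPKM in PEF. EPCAM, a surface protein of pluripotent cells and epithelia, was at 6.07 FPKM in P10 and 0.227 FPKM in PEF. Several members, such as OTX2 and the SALL genes, act in neural progenitors as well. ESRRB, tied to the naive state in mouse, was at 1.28 FPKM in P10 and 0.0417 FPKM in PEF. TBX3 was the lower member, at 0.0278 FPKM in P10 and 5.09 FPKM in PEF. The BEX and TCEAL genes with other X-linked neural genes had 16 of 24 higher and 2 lower. BEX4 was at 591 FPKM in P10 and 5.43 FPKM in PEF. BEX1 was at 316 FPKM in P10 and 3.56 FPKM in PEF. Imprinted genes had 2 of 15 higher and 2 lower. PHLDA2, a brake on placental growth, was at 6.33 FPKM in P10 and 75.3 FPKM in PEF. NDN, necdin, was at 48.8 FPKM in P10 and 31.8 FPKM in PEF. Surface markers of stromal cells had 18 of 31 lower and 4 higher. FAP, fibroblast activation protein, was at 0.0108 FPKM in P10 and 24.7 FPKM in PEF. NT5E, a marker of mesenchymal stromal cells, was at 0.113 FPKM in P10 and 22.3 FPKM in PEF. The higher members included PDPN, podoplanin, at 250.0 FPKM in P10 and 10.04 FPKM in PEF.

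Gene families taken by name added further cases. Kinesins, the microtubule motors, had 18 of 33 higher and 4 lower. KIF5B, the general transport motor, was at 77.9 FPKM in P10 and 217 FPKM in PEF, on the opposite side from its neuronal relative KIF5C. Myosins had 6 of 22 higher and 8 lower. MYH9, non-muscle myosin, was at 64.7 FPKM in P10 and 1185 FPKM in PEF. MYO10, of filopodia, was at 54.1 FPKM in P10 and 12.5 FPKM in PEF. Zinc finger genes had 32 higher and 4 lower of 172, or 18.6% and 2.33%. Their share of higher genes was near the 19.8% over all compared genes, and their share of lower genes was under the 20%. ZNF423 was at 10.5 FPKM in P10 and 0.608 FPKM in PEF. ZNF711 was at 14.8 FPKM in P10 and 1.07 FPKM in PEF. Solute carriers had 30 higher and 42 lower of 161, or 18.6% and 26.1%, beside 19.8% and 20% over all compared genes. The sign of their median of -0.14 turned with the mitochondrial rescaling. SLC7A8, an amino acid carrier, was at 87.4 FPKM in P10 and 1.79 FPKM in PEF. Cilium and dynein genes had 13 of 41 higher and 3 lower. CFAP45, of cilia, was at 29.0 FPKM in P10 and 2.60 FPKM in PEF. Cyclic nucleotide enzymes had 4 of 23 higher and 11 lower. PDE3A, a phosphodiesterase, was at 0.0757 FPKM in P10 and 10.5 FPKM in PEF. Small nucleolar RNAs had 13 of 29 higher and 2 lower, and 6 of the higher ones were listed at 0 in PEF. Of the 29, 20 share a locus with another gene ID, so the division of reads is uncertain for most of them.

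Position along the genome was described on susScr3, with the table's own loci, whose starts may count from 0 or 1. Over chromosomes 1 to 18 and X, median differences ran from -0.17 on chromosome 16 to 0.15 on chromosome 6. Chromosome X had 25.7% of 459 compared genes higher and 17.6% lower. Chromosome 16 had 16.4% of 219 higher and 26.5% lower. Neighbouring genes more often than the set as a whole shared a direction. Of genes alone at their locus, a gene lower in P10 was followed by another lower gene in 30.4% of cases, while 20.4% of that set were lower. A higher gene was followed by a higher one in 29.6%, while 20.5% were higher. With only genes that had a symbol the shares were nearer, 24.9% beside 20.6% for lower genes and 22.9% beside 19.8% for higher ones, an alternative added after the data were seen. The part of gene models split into several IDs was not tested. The longest run was 8 lower genes on chromosome 18, from 50006831 to 50372766. It holds HOXA11, HOXA7, HOXA5, HOXA3, 3 IDs without a symbol and SKAP2, an adaptor of immune cells at 0.0238 FPKM in P10 and 1.52 FPKM in PEF. HOXA2†, which was higher, lies between HOXA3 and SKAP2 and was left out of the run because it shares its locus. Runs of 7 lower genes followed, 3 in number. That on chromosome 12, from 24762105 to 24877917, was made of HOXB3, HOXB4, HOXB8, HOXB7, HOXB6, HOXB5 and 1 ID without a symbol. That on chromosome 1, from 268275195 to 269072184, held GABBR2, ANKS6, GALNT12, 3 IDs without a symbol and COL15A1, a basement membrane collagen at 0.0749 FPKM in P10 and 116 FPKM in PEF. That on chromosome 9, from 108773025 to 110592594, held HGF, the hepatocyte growth factor, SEMA3C, GNAI1 and 4 IDs without a symbol. HGF was at 0.0737 FPKM in P10 and 6.70 FPKM in PEF. SEMA3C was at 2.56 FPKM in P10 and 37.5 FPKM in PEF. In all, 124 runs of at least 3 higher and 137 runs of at least 3 lower genes were found, and the longest of the higher runs had 6 genes. The locus of a gene with a symbol and no partner at its locus spanned a median of 21.8 kb among the 1406 higher, 29.1 kb among the 1452 lower and 21.4 kb among the 4246 others.

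The make-up of each column shows how much of the summed FPKM these groups took. The 10 most abundant gene IDs held 38.2% of the sum in P10 and 25.1% in PEF, and without mitochondrial genome genes 21.0% in P10 and 20.1% in PEF. Stress fibre and focal adhesion genes took 0.424% in P10 and 4.31% in PEF. Collagens took 0.0198% in P10 and 1.07% in PEF. Cytosolic ribosomal proteins took 3.43% in P10 and 2.60% in PEF. Outside the mitochondrial genome, the 4 most abundant genes with a symbol in P10 were RPLP1, RPL4†, HNRNPA1 and RPS18, all of ribosomes or RNA binding. In PEF the 4 most abundant such genes with a symbol were VIM, ACTA2, ACTG1 and TPM4, all of the cytoskeleton. In both columns some IDs without a symbol were more abundant than these genes and are not named. TPM4, a tropomyosin, was at 257 FPKM in P10 and 4609 FPKM in PEF. Some abundant genes differed by less than 0.2. MORF4L2, a chromatin protein, was at 871 FPKM in P10 and 768 FPKM in PEF. GNAI2, a G protein subunit, was at 437 FPKM in P10 and 439 FPKM in PEF. PGAM1, of glycolysis, was at 394 FPKM in P10 and 408 FPKM in PEF.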

How the data were processed

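The values are FPKM per gene ID from the table the authors deposited, with 1 column per group and 3 columns in all. Per the labels' protocols, the RNeasy Mini kit was used for RNA and the NEBNext Ultra kit for libraries. Bowtie2 2.0.6, TopHat2 2.0.9 and the build susScr3 are named in the submitters' processing notes. The sources used here name no program for the FPKM values and no way in which the 2 libraries of each group were pooled. FPKM divides by gene length and by mapped fragments, so each gene's value depends on the abundant genes of its column, and the depth behind a value is unknown.

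Gene IDs were named from RefSeq and gene name tables, which gave a symbol to 11804 of 25322 IDs. IDs that reached 1 FPKM in either column were compared as log2(FPKM + 1), P10 minus PEF, with no test, because the design's fit needs a value per library. Counting was tested on simulated data. Python 3.11.15, pandas 2.3.3, numpy 2.4.6 and matplotlib 3.10.9 were used. The members and lists were chosen with earlier results of these data known.

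Named genes are the 20 highest and 20 lowest differences among genes with a symbol and at least 5 FPKM in the higher column, the 15 highest levels in each column, up to 6 largest and 3 smallest differences in each list or family, the genes of the 5 longest runs of neighbours, and the 10 most abundant genes that differed by less than 0.2. The marker genes and these other genes were chosen after their values were seen: ACTB, ACVR2B, ALCAM, ATIC, BMP7, CCNA1, COL11A2, COL2A1, COL4A2, COL4A5, COL4A6, COL9A1, CRABP2, ERBB4, ESRRB, EYA2, EZH2, FGFR1, FGFR2, FGFR3, FN1, FZD6, HOXA2, HOXC6, HOXD3, HOXD4, IGF2BP1, ITGB2, KIF5B, LGR4, LHX2, LHX9, LMNB1, MAP1A, MAP4, MATN2, MET, MYO10, NDN, NEUROD1, NOTCH2, NRP2, NTRK2, P3H2, PAICS, PHGDH, POU4F1, PSPH, RBP4, S100A10, SEMA3A, SLA-DMB, SMAD4, SPARCL1, SPON1, TENM3, WNT3, WNT5B, ZIC1, ZIC2 and ZIC5. So were the subgroups of lists, such as the Eph receptors. A few genes, 1 family and 1 run of neighbours are not reported here. Alternatives changed the pseudocount, the filter, the scaling, the threshold and the set of IDs. No sequence is shown, as none was supplied.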

Additional observations from a re-analysis of the deposited data

Results flagged for a closer look

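The column of piPSCs P5 (Rex1+), which the comparison does not use, held 491 gene IDs with an FPKM of at least 1 that stayed under 1 FPKM in both P10 and PEF. They are outside the set of compared genes and are given as a number only.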

How the results depend on the processing

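The 2678 higher and 2705 lower genes became 1249 higher and 1762 lower with a pseudocount of 5, 945 higher and 1086 lower from a difference of 2, and 1665 higher and 1742 lower among IDs with a symbol. With a mean FPKM of at least 5 there were 1410 higher and 2089 lower genes, so that 40.3% of the differing genes were higher in place of 49.7%. With at least 5 FPKM in either column there were 1772 higher and 2333 lower genes, or 43.2% higher. That alternative was added after seeing the data. The last 3 settings leave fewer genes by construction, the threshold of 2 asks for a larger difference, and the cause for the pseudocount was not tested. Counts under the other settings stayed within 1.5 times. The number of lists with a median of at least 1 in size, 37, became 19 with a pseudocount of 5 and 23 with no filter on low FPKM, and lay between 33 and 40 otherwise. Lists that fell under 1 with the pseudocount of 5 included pluripotency, BEX, HOX, cytokine, interferon, stromal surface and kinesin genes. A median of another sign and at least 1 in size in the comparison as reported was seen in 2 cases: the tumour necrosis factor superfamily had 0.019 with no filter, and voltage-gated and potassium channels had -2.87 with a mean of at least 5 FPKM. Medians under 1 that turned sign included nuclear hormone receptors, proteasome subunits, solute carriers, tripartite motif and TMEM proteins with the mitochondrial rescaling, WNT and Hedgehog genes with no filter, and cadherins, axon guidance, Notch and cilium genes with a mean of at least 5 FPKM. The 10 most abundant IDs held 21.0% of the sum in P10 without mitochondrial genome genes. The 40 genes with the highest and lowest differences kept their side in all 429 alternatives computed for them, and chromosome medians stayed under 1 in size. These 40 genes were chosen for the size of their difference in the same columns, so a change of side was hardly possible. The count of 429 is therefore no support for their directions. No paired analysis was possible because the table has 1 pooled column per group, and leaving out a replicate was not possible for the same reason. Depth is unknown, so no limit of detection can be given.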

Other observations

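Most differing genes with a symbol, 2477 of 3407, stand in none of the lists, and some of them, chosen after their values were seen, are given here. GREB1L, a retinoic acid target, was at 44.1 FPKM in P10 and 0.188 FPKM in PEF. PRDM12, a factor of pain-sensing neurons, was at 39.8 FPKM in P10 and 0.0982 FPKM in PEF. BRINP1, a secreted protein of neurons, was at 31.5 FPKM in P10 and 0.0386 FPKM in PEF. Genes known from sensory neurons were among them. P2RX3, an ATP receptor, was at 11.8 FPKM in P10 and 0.0374 FPKM in PEF. HTR3A, a serotonin receptor, was at 10.9 FPKM in P10 and 0.039 FPKM in PEF. CALB2, calretinin, was at 12.02 FPKM in P10 and 0.0344 FPKM in PEF. Genes with higher levels in P10 included the next 3. NASP, a histone chaperone, was at 341 FPKM in P10 and 19.6 FPKM in PEF. TPBG, a surface protein of trophoblast and embryonic cells, was at 299.8 FPKM in P10 and 37.1 FPKM in PEF. FRAS1, of epithelial basement membranes, was at 144 FPKM in P10 and 13.8 FPKM in PEF. Among 10 meiosis genes 7 were higher and 1 lower, and the median was 1.83. MND1, of meiotic recombination, was at 91.6 FPKM in P10 and 8.48 FPKM in PEF. REC8†, the meiotic cohesin, was at 11.7 FPKM in P10 and 0.541 FPKM in PEF. The lower one, SYCP2, of the synaptonemal complex, was at 2.22 FPKM in P10 and 31.0 FPKM in PEF.

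On the lower side SULF1, which trims heparan sulphate, was at 7.504 FPKM in P10 and 963 FPKM in PEF. SPP1, osteopontin, was at 0.496 FPKM in P10 and 167 FPKM in PEF. PRSS35, a protease-like secreted protein, was at 2.40 FPKM in P10 and 257 FPKM in PEF. Transcription factors on the lower side are given next, while PRDM12 above was higher. ERG, of endothelium and cartilage, was at 0.314 FPKM in P10 and 68.9 FPKM in PEF. EPAS1, an oxygen-sensing factor related to HIF1A, was at 0.251 FPKM in P10 and 60.8 FPKM in PEF. AHR, the aryl hydrocarbon receptor, was at 0.374 FPKM in P10 and 26.1 FPKM in PEF. Proteins of the cell cortex and of signalling were among the lower ones too. MSN, moesin, was at 23.6 FPKM in P10 and 497 FPKM in PEF. IQGAP1, a scaffold of the leading edge, was at 17.1 FPKM in P10 and 189.9 FPKM in PEF. JAK1, a kinase of cytokine receptors, was at 13.6 FPKM in P10 and 127 FPKM in PEF.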
